A study of Homo sapiens with 4 samples.

Results

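The BCL2 family and its effectors were followed across every probe set that names BCL2, BCL2L1, MCL1, BAX, BAK1, BID, BCL2L11, BBC3, HRK or DIABLO as its only gene. These are 31 of the 40914 probe sets that name exactly 1 gene, and 10 of 19774 genes. They were measured in DU145, an established androgen-independent line from a human prostate carcinoma metastasis, on 4 Affymetrix arrays. The first group is 2 arrays of cells carrying a short hairpin RNA against DCUN1D1 (shDCUN1D1, or DU145-DCUN1D1-KD), a gene whose product helps attach the ubiquitin-like protein NEDD8 to cullins. The second is 2 arrays of cells carrying a hairpin against GFP (shGFP, or DU145-GFP), which has no target in these cells. All 4 cultures shared the DU145 background and a lentiviral hairpin, and the records give all of them 16 h of growth in DMEM before RNA extraction. The methods of the paper describe a longer incubation between infection and RNA collection, so the time after infection is uncertain. The records also mention DMSO without naming the cells it went to. According to the methods more than 1 hairpin against DCUN1D1 was used, and since no record ties a hairpin to an array, hairpin and replicate cannot be told apart.

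Proteins of the BCL2 family decide whether the outer mitochondrial membrane is opened during apoptosis. BCL2, BCL-XL (from BCL2L1) and MCL1 hold the effectors BAX and BAK in check, and the BH3-only proteins BID, BIM (BCL2L11), PUMA (BBC3) and HRK bind the guards or activate the effectors. Once BAX and BAK form pores, cytochrome c and SMAC (DIABLO) leave the mitochondrion, and SMAC blocks the inhibitor of apoptosis proteins that restrain caspases. Much of this control acts on protein stability, location and binding, which RNA signal does not measure. In bulk RNA, a smaller share of cells with a transcript and less transcript per cell cannot be told apart.

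Signal was low on these arrays. Values are log2 probe set signals, and a probe set is a group of short probes for a transcript. The nonspecific control of probes with 20 G or C bases read 2.48 and 2.51 in shDCUN1D1 arrays, and 2.97 and 3.30 in shGFP arrays. Of the 31 probe sets, 10 (32.3%) lay above that control in both arrays of at least 1 group, against 11.5% of all single-gene probe sets. In all, 6 lay above it in every array and 19 in no array. Replicate 1 of shDCUN1D1 stood apart from the other 3 arrays, with correlations of 0.661 to 0.746 against 0.827 to 0.916 among those 3. It exceeded each other array by over 1 log2 unit in 2690 probe sets (6.57%), against 27 to 365 for the other arrays. GAPDH, on its 3′ control probe set, read 10.82 in that array and 5.09 in replicate 2 of shDCUN1D1, against 5.02 and 4.68 in shGFP arrays. Actin, on its own 3′ control, read 8.30 and 4.35 in shDCUN1D1 arrays, against 4.05 and 3.95 in shGFP arrays. The middle of actin read 10.48 and 10.55 in shDCUN1D1 arrays, against 10.26 and 9.65 in shGFP arrays. The 5′ control of GAPDH read 9.67 and 7.14 in shDCUN1D1 arrays, against 6.60 and 6.42 in shGFP arrays. The middle of GAPDH read 11.07 and 10.01, against 9.39 and 9.05 in shGFP arrays. In every array but replicate 1 of shDCUN1D1, both 3′ controls read below the 5′ and middle controls of their gene. Of the nonspecific controls, 20 of 23 were lower in both shDCUN1D1 arrays than in both shGFP arrays, with a median difference of -0.29. DCUN1D1 itself, on its brightest probe set (222678_PM_s_at), read 1.60 and 1.45 in shDCUN1D1 cells and 2.55 and 1.99 in shGFP cells. That is 40.4% less signal (log2 fold change -0.75, SE 0.26, limma adjusted p = 0.625), below the nonspecific control in all 4 arrays. It passed the fold bound of the comparisons that follow only without shGFP replicate 2 (-1.02). Of its 5 other probe sets, all below the control, 218583_PM_s_at (0.12) and 242428_PM_at (0.07) had log2 fold changes above 0 and the rest -0.47 to -0.11, and the mean over all 6 was -0.22. On their brightest probe sets, of 5 epithelial markers, KRT8 lay above the control in all 4 arrays and KRT18 in 1 array, while KRT19, EPCAM and CDH1 lay below it. Leukocyte and endothelial markers were below it, as were the fibroblast markers except COL1A1, which lay above it in all 4 arrays, and the luminal genes KLK2 and KLK3 except KLK3 in 1 array.

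Transcription start windows of BCL2, DIABLO and BAX are shown because these are the genes with the largest decrease, the largest increase and the most E-box letters. Each window runs from 250 bases before to 50 after a RefSeq start (GRCh38.p14), and capitals mark CACGTG, an E-box that MYC and related factors bind. BCL2 lies on chromosome 18, DIABLO on chromosome 12 and BAX on chromosome 19.
BCL2, chr18:63319720-63320019, minus strand: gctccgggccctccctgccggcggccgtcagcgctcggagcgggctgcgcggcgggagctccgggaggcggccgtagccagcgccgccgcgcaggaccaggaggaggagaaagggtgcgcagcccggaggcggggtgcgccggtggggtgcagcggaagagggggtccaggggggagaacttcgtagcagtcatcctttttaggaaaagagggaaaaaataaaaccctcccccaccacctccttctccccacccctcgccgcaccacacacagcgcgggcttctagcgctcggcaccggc
DIABLO, chr12:122227407-122227706, minus strand: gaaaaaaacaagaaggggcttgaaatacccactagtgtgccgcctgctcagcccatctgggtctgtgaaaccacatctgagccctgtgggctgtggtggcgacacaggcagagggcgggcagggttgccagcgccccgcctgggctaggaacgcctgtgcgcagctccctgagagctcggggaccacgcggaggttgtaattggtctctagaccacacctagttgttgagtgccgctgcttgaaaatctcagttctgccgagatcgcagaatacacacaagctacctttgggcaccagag
BAX, chr19:48954625-48954924, plus strand: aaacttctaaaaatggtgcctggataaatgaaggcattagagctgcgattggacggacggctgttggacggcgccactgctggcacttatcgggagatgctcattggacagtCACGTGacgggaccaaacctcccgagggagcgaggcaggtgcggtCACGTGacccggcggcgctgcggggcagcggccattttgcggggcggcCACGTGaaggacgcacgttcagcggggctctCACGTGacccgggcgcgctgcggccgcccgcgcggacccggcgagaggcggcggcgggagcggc
The BAX window held 4 E-boxes, while the BCL2 and DIABLO windows shown held 0. Of the other 3 DIABLO windows, that at chr12:122226519-122226818 held 1. Over all 17 windows of 9 of the genes, 5 held an E-box on either strand, against 7.26% of 35116 RefSeq windows. The TCF/LEF core CTTTGA, bound by the factors that act with β-catenin in WNT signalling, was in 1 of the 17, that of BAK1, against 12.9% of all windows. These letters describe the windows, and several windows of a gene overlap. The GC box GGGCGG was in 45% of all windows and in both DIABLO and BAX windows shown.

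Across the family, 4 of the 31 probe sets differed past the bound used here, and none after adjustment over all probe sets. Each fold change was given a 90% confidence interval from limma's moderated error. A probe set counted as past the fold bound, in either direction, where the interval's limit nearest to no change was a fold of over 1.2. By this rule 2 of the 31 probe sets were higher in shDCUN1D1 cells, those of DIABLO and BID, where 1.18% of all 40914 were. Another 2 were lower, those of BCL2 and HRK, where 2.38% of all were. The 4 of 31 stand beside 3.56% in either direction. No probe set had a limma adjusted p under 0.05 (0 of 40914, 0%), and the smallest adjusted p, in these genes as over all, was 0.625. At an unadjusted p under 0.05 there were 3 higher and 2 lower of the 31, and 939 higher and 2146 lower of all. The median log2 fold change was 0.16 over the 31 probe sets and -0.01 over all, with 18 above 0 and 13 below.

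**Figure D1:**
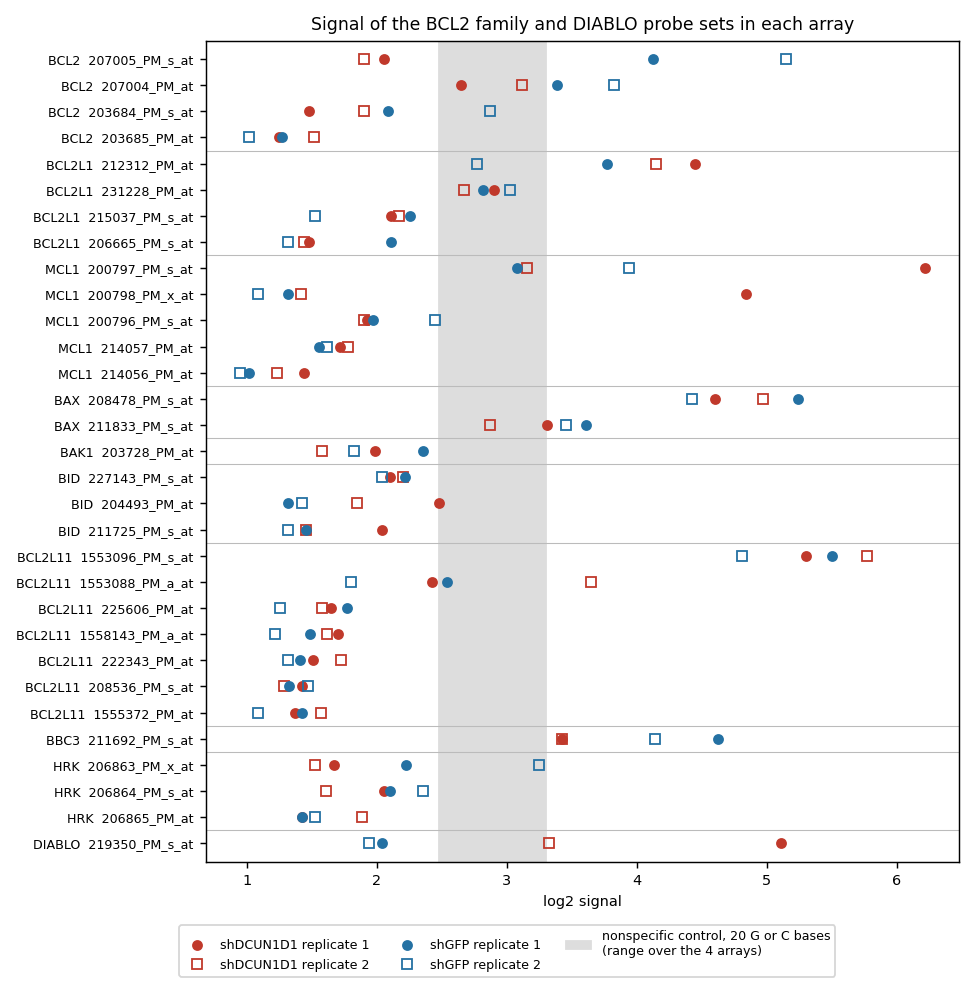
Each row is a probe set, with its log2 signal in the 4 arrays on the x axis (red, shDCUN1D1; blue, shGFP; circles, replicate 1; squares, replicate 2) and the range of the nonspecific control, 2.48 to 3.30, in grey. The BCL2 probe set 207005_PM_s_at has both red points left of both blue ones and DIABLO has both to the right, while MCL1 has 1 red point far from the other 3.

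BCL2, the founding guard of the family, had the largest change of the family in either direction. Its brightest probe set (207005_PM_s_at) read 2.06 and 1.90 in shDCUN1D1 cells, against 4.13 and 5.15 in shGFP cells. Both shDCUN1D1 arrays lay below the nonspecific control and both shGFP arrays above it. The means were 1.98 ± 0.11 and 4.64 ± 0.72 (SD, n = 2 each), a log2 fold change of -2.66 (SE 0.50, 90% interval -3.67 to -1.65), or 84.2% less signal. Since the shDCUN1D1 signal was at background, the fold is better taken against the control's mean of 2.49 in those arrays. That gave 4.43-fold, an estimate from the means without an interval. The lower limit of the fold from the 90% interval was 3.137, with a limma adjusted p = 0.625. The call held in every fit run, with -2.15 to -3.17 when each array was left out. The nonspecific controls differed by -0.68 to -0.04 between the same groups, and their part in this result was not tested.

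The other BCL2 probe sets gave smaller differences of mixed sign. Probe set 207004_PM_at, above the control in all 4 arrays, read 2.65 and 3.12 in shDCUN1D1 cells and 3.39 and 3.83 in shGFP cells (log2 fold change -0.72, SE 0.43). Probe set 203684_PM_s_at, below the control throughout, read 1.48 and 1.90 against 2.09 and 2.87 in shGFP cells (-0.79, SE 0.35). In both the groups did not overlap, with shDCUN1D1 below shGFP, yet neither passed the fold bound with all 4 arrays. The second did so without shDCUN1D1 replicate 2 (-1.0) or without shGFP replicate 1 (-1.18). Probe set 203685_PM_at, the dimmest, read 1.25 and 1.52 in shDCUN1D1 cells and 1.27 and 1.02 in shGFP cells (0.24, SE 0.15). Averaged over its 4 probe sets, BCL2 differed by -0.98, still past the bound but over 1.5 times smaller than on the brightest one.

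BCL2L1, which encodes the guard BCL-XL and the shorter pro-apoptotic BCL-XS, was higher in signal on its brightest probe set, short of the fold bound. Probe set 212312_PM_at read 4.45 and 4.15 in shDCUN1D1 cells and 3.77 and 2.77 in shGFP cells (log2 fold change 1.03, SE 0.56, limma adjusted p = 0.625). The groups did not overlap, but the gap between the shGFP arrays, 1 above and 1 below the control, was wider than that between the groups, and the difference was 0.53 without shGFP replicate 2. The other 3 probe sets overlapped between groups, with log2 fold changes of -0.25 to 0.25 and signals of 1.32 to 3.03.

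MCL1, a short-lived guard whose protein is quickly degraded by the proteasome, was set by 1 array. Its brightest probe set (200797_PM_s_at) read 6.22 and 3.16 in shDCUN1D1 cells, against 3.08 and 3.94 in shGFP cells. Replicate 1 of shDCUN1D1 was far above the other 3 arrays, and replicate 2 lay within the shGFP range. The log2 fold change of 1.18 (SE 1.12, adjusted p = 0.704) became -0.35 without shDCUN1D1 replicate 1 and 2.72, past the fold bound, without replicate 2. Probe set 200798_PM_x_at showed the same split, at 4.84 and 1.42 in shDCUN1D1 cells and 1.32 and 1.09 in shGFP cells (1.92, SE 1.10). It was 0.21 without shDCUN1D1 replicate 1 and 3.63, past the bound, without replicate 2.

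The remaining MCL1 probe sets lay below the nonspecific control in every array. Probe set 200796_PM_s_at read 1.93 and 1.90 in shDCUN1D1 cells and 1.97 and 2.45 in shGFP cells (log2 fold change -0.30, SE 0.25). Probe set 214056_PM_at read 1.44 and 1.23 against 1.02 and 0.95 in shGFP cells (0.35, SE 0.10). Probe set 214057_PM_at read 1.72 and 1.78 against 1.56 and 1.62 in shGFP cells (0.16, SE 0.16). Groups did not overlap in these 3, lower in shDCUN1D1 for the first and higher for the others, and none passed the fold bound.

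The effectors BAX and BAK1, whose proteins form the membrane pores, had no probe set past the fold bound, and all 3 of their log2 fold changes were below 0. BAX was among the brightest genes of the family. Its probe set 208478_PM_s_at read 4.60 and 4.97 in shDCUN1D1 cells and 5.24 and 4.43 in shGFP cells. The shGFP values enclose the shDCUN1D1 values, and the log2 fold change was -0.05 (SE 0.62, 90% interval -1.31 to 1.2, adjusted p = 0.984). The interval is wide and reaches large changes in both directions. On probe set 211833_PM_s_at, BAX read 3.31 and 2.87 in shDCUN1D1 cells and 3.61 and 3.46 in shGFP cells (-0.45, SE 0.41), with no overlap and all 4 arrays above the control. BAK1, on its single probe set (203728_PM_at), read 1.99 and 1.58 against 2.36 and 1.83 in shGFP cells (-0.31, SE 0.28), below the control throughout.

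**Figure D2:**
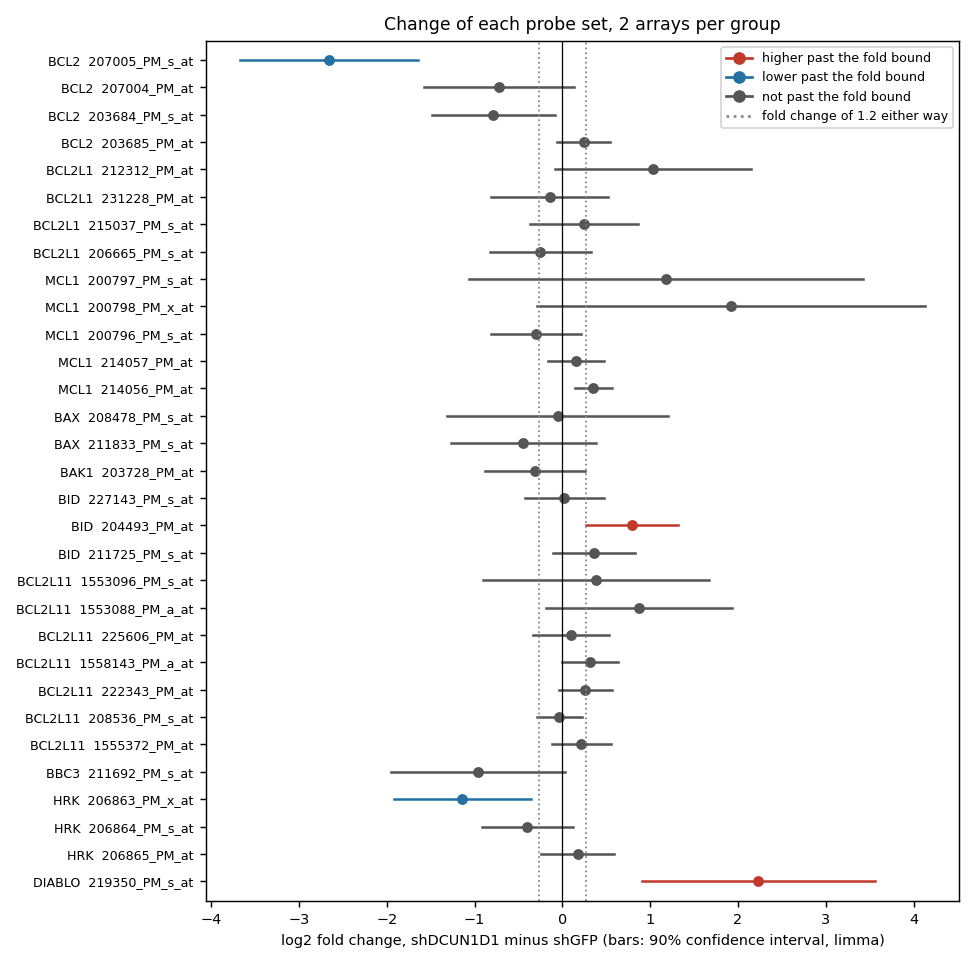
Points are log2 fold changes (shDCUN1D1 minus shGFP, x axis) of the 31 probe sets and bars their 90% confidence intervals from limma, with dotted lines at a fold change of 1.2 either way. The intervals of BCL2 207005_PM_s_at (-3.67 to -1.65) and DIABLO (0.91 to 3.56) lie well clear of the lines, those of HRK 206863_PM_x_at and BID 204493_PM_at only just, and MCL1 has the widest.

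Among the BH3-only genes, BCL2L11, BBC3 and HRK carried the larger signals or changes. BCL2L11 encodes BIM, which binds every guard, and its probe set 1553096_PM_s_at was the brightest of the family. It read 5.30 and 5.77 in shDCUN1D1 cells and 5.50 and 4.81 in shGFP cells, with overlap between groups (log2 fold change 0.38, SE 0.64, adjusted p = 0.841). The sign turned under quantile normalization, at -0.34. Probe set 1553088_PM_a_at read 2.43 and 3.65 against 2.54 and 1.80 in shGFP cells (0.87, SE 0.53), and without shDCUN1D1 replicate 1 the value was 1.48 and past the fold bound. The other 5 lay between 1.09 and 1.77, under the control, with log2 fold changes of -0.04 to 0.31. In 2 of these the groups did not overlap: 1558143_PM_a_at read 1.70 and 1.62 in shDCUN1D1 cells and 1.49 and 1.22 in shGFP cells, and 222343_PM_at read 1.51 and 1.73 against 1.41 and 1.32 in shGFP cells.

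BBC3 encodes PUMA, a p53 target that binds all the guards. Its single probe set (211692_PM_s_at) read 3.43 and 3.43 in shDCUN1D1 cells, against 4.63 and 4.14 in shGFP cells. The shDCUN1D1 values were equal to 2 decimals and below both shGFP arrays, and all 4 lay above the control. The log2 fold change was -0.96 (SE 0.49, 90% interval -1.95 to 0.03, limma adjusted p = 0.625), 48.4% less signal and short of the fold bound. It passed the bound only when limma's variance trend was left out, and lay between -1.20 and -0.71 with each array left out.

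HRK, a BH3-only gene known mainly from neurons, was lower past the fold bound on 1 of 3 probe sets. Probe set 206863_PM_x_at read 1.67 and 1.53 in shDCUN1D1 cells and 2.23 and 3.25 in shGFP cells (log2 fold change -1.14, SE 0.39, lower limit of the fold 1.283, limma adjusted p = 0.625). All 4 values lay below the nonspecific control, so no fold of transcript is given, and the letter x in the name marks probes that can match other sequences. Without shGFP replicate 2, the highest of the 4, the value was -0.63 and no longer past the bound, and likewise -1.07 without shDCUN1D1 replicate 2. Probe set 206864_PM_s_at read 2.06 and 1.61 against 2.10 and 2.36 in shGFP cells (-0.40, SE 0.26), without overlap. Probe set 206865_PM_at had overlapping groups and a log2 fold change of 0.18 (SE 0.21).

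BID, which caspase-8 cleaves to link death receptors to mitochondria, was higher on a dim probe set. Probe set 204493_PM_at read 2.48 and 1.85 in shDCUN1D1 cells and 1.32 and 1.43 in shGFP cells (log2 fold change 0.79, SE 0.26, limma adjusted p = 0.625). All values were at or below the nonspecific control, and the lower limit of the fold, 1.205, was just inside the bound. The call was lost without shDCUN1D1 replicate 1 (0.48), without shGFP replicate 1 (0.74) and without shGFP replicate 2 (0.85), and also under median centring, a filter at the median signal, no variance trend, unmoderated errors or a replicate block. The brightest BID probe set (227143_PM_s_at) read 2.10 and 2.20 in shDCUN1D1 cells and 2.22 and 2.04 in shGFP cells (0.02, SE 0.22). Probe set 211725_PM_s_at read 2.04 and 1.46 against 1.46 and 1.32 in shGFP cells (0.36, SE 0.23), where the second shDCUN1D1 array and the first shGFP array were equal to 2 decimals. It passed the bound only without shDCUN1D1 replicate 2 (0.65).

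DIABLO, which encodes the caspase-activating mitochondrial protein SMAC, had the largest increase among the 31 probe sets. Its only probe set (219350_PM_s_at) read 5.11 and 3.33 in shDCUN1D1 cells, against 2.04 and 1.94 in shGFP cells. Both shDCUN1D1 arrays lay above the nonspecific control and both shGFP arrays below it. The means were 4.22 ± 1.25 and 1.99 ± 0.07 (SD, n = 2 each), a log2 fold change of 2.23 (SE 0.66, 90% interval 0.91 to 3.56, limma adjusted p = 0.625). With shGFP at background, the mean shDCUN1D1 signal was 2.12-fold above the control's mean of 3.13 in shGFP arrays, an estimate without an interval. The lower limit of the fold from the 90% interval was 1.873. The difference was 1.35 without shDCUN1D1 replicate 1 and 3.12 without replicate 2, both past the bound. Without shGFP replicate 1 (2.28) or replicate 2 (2.18), or with unmoderated errors, the bound was not passed.

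**Figure D3:**
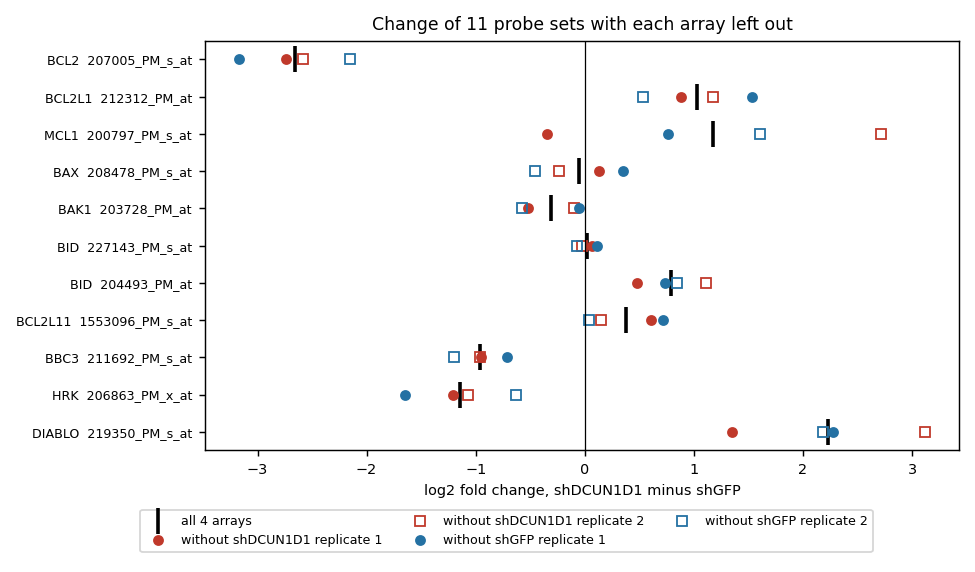
Log2 fold changes (shDCUN1D1 minus shGFP, x axis) of the brightest probe set of each gene and of the second BID probe set, from all 4 arrays (black bars) and with each array left out (symbols). BCL2 stays between -3.17 and -2.15, DIABLO between 1.35 and 3.12, and MCL1 spans 0, from -0.35 to 2.72.

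In 9 of the 31 probe sets both shDCUN1D1 arrays lay above both shGFP arrays, where 17.9% of all probe sets did, and in 8 both lay below, where 25.0% did. With 2 arrays against 2 an exact permutation test cannot give a two-sided p under 0.33, so this separation carries no test. The 8 lower ones were 3 of BCL2, 2 of HRK and 1 each of MCL1, BAX and BBC3. The 9 higher ones were 3 of MCL1, 2 each of BID and BCL2L11, and 1 each of BCL2L1 and DIABLO. Probe sets of 1 gene thus did not always lie on the same side, MCL1 having some in each. Replicate 1 of shDCUN1D1 exceeded every other array by over 1 log2 unit in 3 of the 31 (2 of MCL1 and that of DIABLO). That is 9.68%, where 6.57% of all probe sets did. Replicate 2 of shGFP did so in 2 of the 31 (6.45%), where 0.892% of all did. Those were BCL2 207005_PM_s_at and HRK 206863_PM_x_at, the 2 lower past the fold bound. The part of either array's deviation, or of the 3′ control signals of shDCUN1D1 replicate 1, in those results was not tested.

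**Figure D4:**
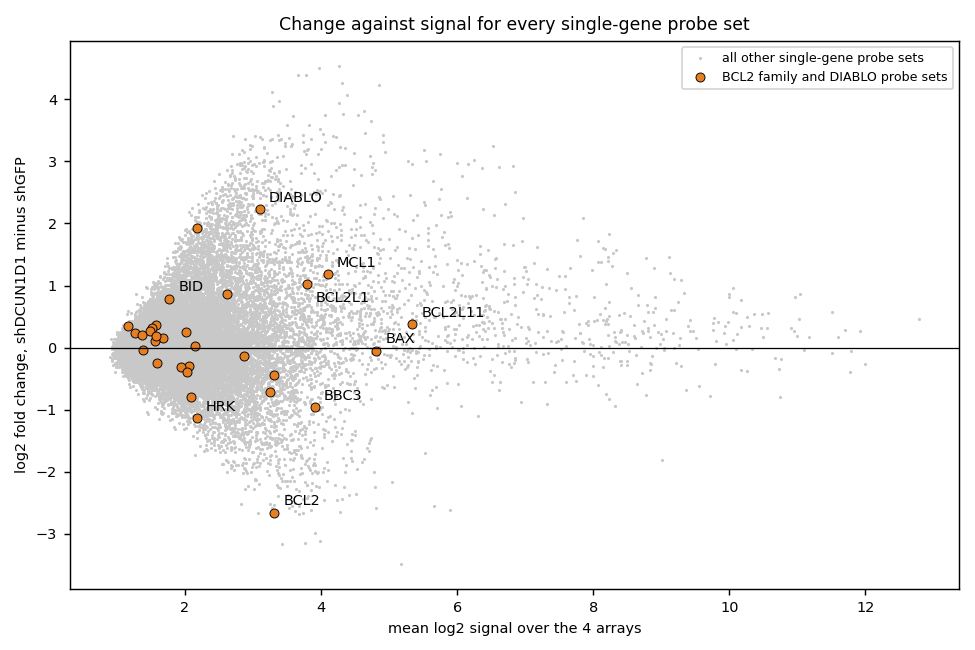
Log2 fold change (shDCUN1D1 minus shGFP, y axis) against mean log2 signal over the 4 arrays (x axis) for all 40914 single-gene probe sets in grey and the 31 probe sets of the family in orange. Names are on the brightest of each gene except BAK1, which has none, or, for BID, on the one past the fold bound. BCL2, at -2.66, is near the lower edge of the grey cloud, DIABLO, at 2.23, is within its upper part, and BAX and BCL2L11 lie near 0 at higher signal.

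The rest of the apoptosis pathway was read from 7 lists of 53 other genes, of which 47 had 133 probe sets naming them alone. Of these 133, 1 was higher and 1 lower past the fold bound, where 1.18% and 2.38% of all probe sets were. The median log2 fold change was 0.02. The higher one was CASP2, a caspase tied to stress responses, whose probe set 209811_PM_at read 2.14 and 1.41 in shDCUN1D1 cells and 1.01 and 0.90 in shGFP cells (0.81, SE 0.26, lower limit of the fold 1.231). The lower one was BCL2L13, a BCL2 relative of the mitochondrial surface, whose probe set 224035_PM_s_at read 1.84 and 1.67 against 2.42 and 2.68 in shGFP cells (-0.79, SE 0.24, lower limit 1.245). Both lay below the nonspecific control in every array. Other probe sets of these genes lay on the other side, with no overlap between groups and none past the bound, namely CASP2 211140_PM_s_at (-0.37) and 209812_PM_x_at (-0.36) and BCL2L13 223664_PM_x_at (0.52). CASP2 226032_PM_at (0.59) was separated in the higher direction. Leaving out shDCUN1D1 replicate 1 (0.45) or either shGFP array (0.87 and 0.76) ended the call for CASP2. For BCL2L13 it ended without shDCUN1D1 replicate 2 (-0.71) or either shGFP array (-0.92 and -0.67).

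By list, the 5 probe sets of anti-apoptotic relatives had a median of -0.11, the 17 of effector and other relatives 0.02 and the 14 of further BH3-only genes 0.03. The 16 of inhibitor of apoptosis genes, whose proteins SMAC opposes, had a median of 0.14 with 0 past the bound in either direction. The 24 of caspases and substrates had a median of 0.13, and the 42 of death receptors and adaptors -0.12. CASP8, the initiator caspase that cleaves BID, was just outside the bound on 207686_PM_s_at, a gene chosen after its values were seen. It read 3.13 and 3.68 in shDCUN1D1 cells and 2.67 and 1.87 in shGFP cells (1.14, SE 0.44, lower limit 1.197). The brightest CASP8 probe set, 1553306_PM_at, read 2.86 and 3.43 against 3.41 and 3.12 in shGFP cells (-0.11, SE 0.42), with overlap. On 213373_PM_s_at CASP8 read 2.73 and 1.33 against 1.29 and 1.24 in shGFP cells (0.77, SE 0.47). On the lower side FASLG 211333_PM_s_at, also chosen after its values were seen, was outside the bound too (-0.48, SE 0.12, lower limit 1.188). It read 1.17 and 1.17 in shDCUN1D1 cells and 1.67 and 1.64 in shGFP cells, below the nonspecific control in every array. The brighter FASLG probe set, 210865_PM_at, had overlapping groups (-0.02, SE 0.16).

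The list of mitochondrial release and the apoptosome, the step that follows BAX and BAK pores and to which SMAC belongs, had the highest median, 0.63 over 15 probe sets. In 9 of them both shDCUN1D1 arrays were above both shGFP arrays and in 0 below, where 17.9% and 25.0% of all probe sets were, yet 0 passed the fold bound. In 6 of the 15 (40.0%) replicate 1 of shDCUN1D1 exceeded every other array by over 1 log2 unit, where 6.57% of all did. CYCS, which encodes cytochrome c, read 7.37 and 1.49 in shDCUN1D1 cells and 1.16 and 1.32 in shGFP cells on 208905_PM_at. VDAC1, the outer membrane channel, read 6.96 and 2.12 against 1.80 and 1.91 in shGFP cells on 212038_PM_s_at. In both, replicate 2 of shDCUN1D1 was near the shGFP arrays and replicate 1 alone was far above. AIFM1, a flavoprotein of the intermembrane space, read 5.20 and 3.35 against 2.99 and 2.33 in shGFP cells on 205512_PM_s_at, where both shDCUN1D1 arrays were higher, as for DIABLO. These 3 genes were chosen after their values were seen. Of the 15 probe sets, 10 had log2 fold changes above 0 and 5 below. Among the 5 were CYCS 244546_PM_at (-0.13) and 229415_PM_at (-0.12), both with overlap between groups.

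**Figure D5:**
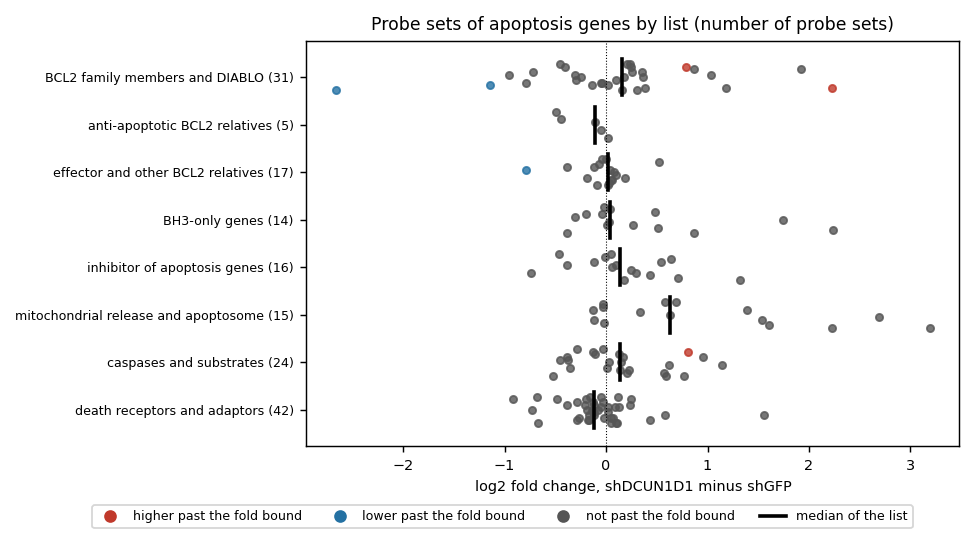
Each point is a probe set, placed by its log2 fold change (shDCUN1D1 minus shGFP, x axis) and list (rows, with the number of probe sets), red or blue where past the fold bound and black bars at each list's median. Medians run from -0.12 to 0.63, highest for mitochondrial release and the apoptosome, whose points reach 3.19 without passing the bound.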

How the data were processed

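Total RNA (1 µg) of 2 shDCUN1D1 and 2 shGFP cultures, called biological duplicates, was hybridised to Affymetrix arrays. The authors deposited log2 signals, 1 per probe set and array. The submitters' notes on processing list Affymetrix Expression Console, whereas the methods of the paper describe dChip and a smoothing spline. The program behind the table is not given in the sources, and its effect on dim probe sets was not tested. Of 54715 probe sets, 40914 name 1 gene and were kept, while 864 naming several genes, 12835 naming none and 102 controls were left out.

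All 40914 were fitted with limma (version 3.58.1, R 4.3.3), allowing a variance trend, and p-values were adjusted by Benjamini-Hochberg. The fold bound follows the methods' threshold but not their software. Named are the 10 genes by their brightest probe set, every probe set of theirs past the bound or with groups that do not overlap, DCUN1D1, and other apoptosis genes past the bound. Outside this rule, CASP8, FASLG, CYCS, VDAC1 and AIFM1 were named after their values were seen. The genes, lists and tests were chosen with earlier results of these data known. Alternatives were quantile normalization, median centring, signal filters, gene-level summaries, other variance models, a replicate block, other thresholds and leaving out each array. Precision rests on 4 arrays and their signal over background, since arrays have no read depth. The records do not say how the duplicates were made, so p-values measure only the spread between these arrays, which may be technical. The fit was tested on simulated data.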

Additional observations from a re-analysis of the deposited data

How the results depend on the processing

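The BCL2 call on 207005_PM_s_at kept its direction and its side of the fold bound in every alternative run, between -3.17 and -0.98. Directions and calls were tallied for the brightest probe set of each of the 10 genes and the BID, CASP2 and BCL2L13 probe sets past the bound. The tally leaves out the changed thresholds and settings in which a probe set was not tested. Under the filters of probe sets, the other variance models and the replicate block, a probe set's fold change is unchanged, so its direction could not turn. Values that kept their side include probe sets called in neither fit. The number kept is therefore no measure of robustness. HRK, BID, CASP2 and BCL2L13 were not called at a bound of 1.5 or with a 95% interval. In the tally 149 values kept direction and side, 24 lost the bound, 2 gained it (MCL1 at 2.72 without shDCUN1D1 replicate 2, and BBC3 with no variance trend) and 6 changed sign. Those 6 were MCL1 200797_PM_s_at without shDCUN1D1 replicate 1 (-0.35), BAX 208478_PM_s_at without shDCUN1D1 replicate 1 (0.13) or shGFP replicate 1 (0.35), with -0.46 to 0.35 over the arrays left out, BID 227143_PM_s_at without shDCUN1D1 replicate 2 (-0.03) or shGFP replicate 2 (-0.07), with -0.07 to 0.11 over the arrays left out, and BCL2L11 1553096_PM_s_at under quantile normalization (-0.34). The cause was not tested.

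Of the family's 31 probe sets, 2 higher and 2 lower past the bound became 1 higher under median centring, either signal filter, either gene-level summary, no variance trend, the replicate block, a bound of 1.5 or a 95% interval, and 0 higher with unmoderated standard errors. The lower count became 1 with probe sets above the nonspecific control, gene means, no x probe sets, unmoderated errors, a bound of 1.5 or a 95% interval. Separated probe sets numbered 5 higher and 8 lower of the 21 above the median signal. They were 2 higher and 4 lower of the 10 above the nonspecific control, and 2 higher and 3 lower of 10 by either gene-level summary. The shares over all probe sets in these settings were not computed, so these counts cannot be read against a background. The median of 0.16 became -0.05 above the median signal, -0.10 above the nonspecific control, -0.02 for the brightest probe set per gene and -0.01 for gene means. Median centring moved the median of all probe sets by under 0.1.

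Over all probe sets, 481 higher and 974 lower past the bound became 327 and 452 above the nonspecific control (42.0% of calls higher, against 33.1%), 311 and 720 for the brightest per gene, 172 and 412 for gene means, 105 and 310 at a bound of 1.5, and 177 and 501 with a 95% interval. An unadjusted limma p under 0.05 gave 939 and 2146, unmoderated errors gave 297 higher and 1 probe set at an adjusted p under 0.05 (0.00608). For the other apoptosis lists, 1 higher and 1 lower became 2 higher with median centring, no x probe sets or a robust variance prior, 3 higher and 0 lower with the replicate block, and 4 and 5 at an unadjusted limma p under 0.05. They had 2 lower with no variance trend, 0 higher and 2 lower with unmoderated errors, and 0 higher above the median signal. They had 0 lower above the nonspecific control, and 0 of either with gene summaries, a bound of 1.5 or a 95% interval.

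With each array left out, counts of all probe sets past the bound ran from 47 to 4008 higher and 503 to 1374 lower, and at a limma adjusted p under 0.05 from 0 to 2581 higher and 0 to 21 lower, the calls arising without shDCUN1D1 replicate 2. The group left with 1 array is then assumed to vary like the other. Separation is then of 1 array from 2, a condition more easily met than with 2 arrays in each group. The separated counts that follow therefore cannot be compared with the 9 higher and 8 lower from all 4 arrays. They are given without the share over all probe sets. The family had 0 to 5 higher and 1 to 3 lower past the bound, 10 to 18 separated higher and 9 to 14 lower, and a median of 0.03 to 0.30. The other lists had 0 to 22 higher and 0 to 2 lower. DCUN1D1 ran from -1.02 to -0.47 and passed the bound without shGFP replicate 2. The replicate differences of the 2 groups had a correlation of -0.037 over probe sets. With 2 pairs and shDCUN1D1 replicate 1 apart from the other arrays, this cannot tell whether same-numbered arrays were paired. The replicate block gave 505 higher and 669 lower over all (43.0% higher) and kept BCL2, HRK and DIABLO past the bound, but not BID 204493_PM_at. Low signal over background limits all of this: 19 of the 31 probe sets never exceeded the nonspecific control.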
